A study of Mus musculus with 8 samples.

Results

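The genes of B cell adhesion described here are integrin chains, their ligands, the small GTPase Rap1 with its regulators and effectors, and the proteins that tie integrins to actin. They were chosen by name, and all 38 of them were among the 23997 genes of the processed table. The RNA came from C57BL/6 marginal zone B cells (MZBs), spleen B cells that sit at the border of the blood sinus. The labels list 8 libraries, 4 from ACKR3+ cells and 4 from ACKR3- cells, and the library titles name the same groups by GFP. ACKR3 is an atypical receptor that takes up the chemokine CXCL12. Which promoter drives GFP, the age and sex of the mice, and whether mice were pooled are not given in the labels. Each gene has 1 estimated fragment count for each of 2 pooled conditions, named q1 and q2. No label says which of them is ACKR3+, so values are given by column, without a direction relative to ACKR3. A single value per condition leaves differences without a replicate check, and no test was made. The value after ± is the SD that the deposited variances give.

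Integrins are pairs of an alpha and a beta chain that bind ligands on other cells or in the matrix. Chemokine and antigen receptors load Rap1 with GTP, and Rap1 then brings talin and kindlin to the beta chain, which opens the integrin; GTPase-activating proteins (GAPs) switch Rap1 off again. In the spleen, the integrins alphaLbeta2 and alpha4beta1 hold MZBs in place through the ligands ICAM1 and VCAM1.

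The estimated fragments summed to 16877559 in q1 and 16653774 in q2; how the columns were scaled is not stated, so these totals do not give the sequencing depth. B cell identity was clear: Ms4a1, Cd79a, Cd79b and Cr2 were each among the abundant genes, from 23973 fragments for Cd79b to 81167 for Cr2. Ackr3, the gene that names the groups, counted 1030 fragments in q1 against 149 in q2. All 12 B cell and marginal zone markers were higher in q1, summing to 272490 fragments against 237457 in q2. Toward q2 lay 9 of 9 germinal center markers of at least 100 fragments, 6 of 7 plasma cell markers and 15 of 15 cell cycle genes. Their sums in q1 and q2 were 740 and 3133, 18422 and 54497, and 5314 and 14540 fragments. Of the plasma cell sums, Igj supplied 3234 and 33006, and Irf4, which lay toward q1, 10113 and 8357. In bulk RNA, fewer cells of a type and less RNA per cell cannot be told apart.

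The members fell into a large group that was near equal in the columns and a small group that was not. Ratios were computed as the log2 of q2 over q1, with 1 fragment added to each, where the higher column held at least 100 fragments. This minimum was reached by 33 of the 38 members and by 9582 genes in all. The median log2 ratio of the 33 members was -0.00, beside 0.00 over all genes, with 16 members higher in q2 and 17 in q1; of all genes, 50.2% were higher in q2 and 49.8% in q1. Within 1 SD of no difference lay 21 of the 33, beside 80.5% of all genes. More than 2 SD apart were 8 members, beside 6.26% of all genes (4.15% toward q2 and 2.11% toward q1): Itga6, Itgax, Itgb3, Itgb7, Alcam and Rap1a toward q2, and Vcam1 and Rap1gap toward q1. At least 2-fold apart were 5 members, 3 of them higher in q2 (Alcam, Itgax, Itga6) and 2 in q1 (Vcam1, Rap1gap). All of them but Rap1gap held under 100 fragments in the lower column. They therefore entered the comparison only through the column where they were high, a way open to all genes. The shares of all genes were 2.28% in either direction, 1.84% higher in q2 and 0.438% higher in q1. A 1.5-fold rule gave 5 members higher in q2, beside 3.39% of all genes. With a minimum of 500 fragments, Rap1gap was the single member at least 2-fold apart, beside 0.857% of 6184 genes. The median absolute log2 ratio was 0.13 for the members and 0.10 for all genes. Itga6, at 2.04-fold, lay just inside the 2-fold rule and Itgb7, at 1.99-fold, just outside it. Both turned with the settings: with 10 fragments added in place of 1, Itga6 fell out of the rule at a log2 ratio of 0.96, which left 2 members higher in q2, and with equal column totals Itgb7 met it at 1.01, which made 4. The shares of all genes under these settings were not computed. The member nearest above the minimum was Itgax, with 177 fragments in q2, and the nearest below it was Itga2b, with 24.8 fragments in q2.

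**Figure D1:**
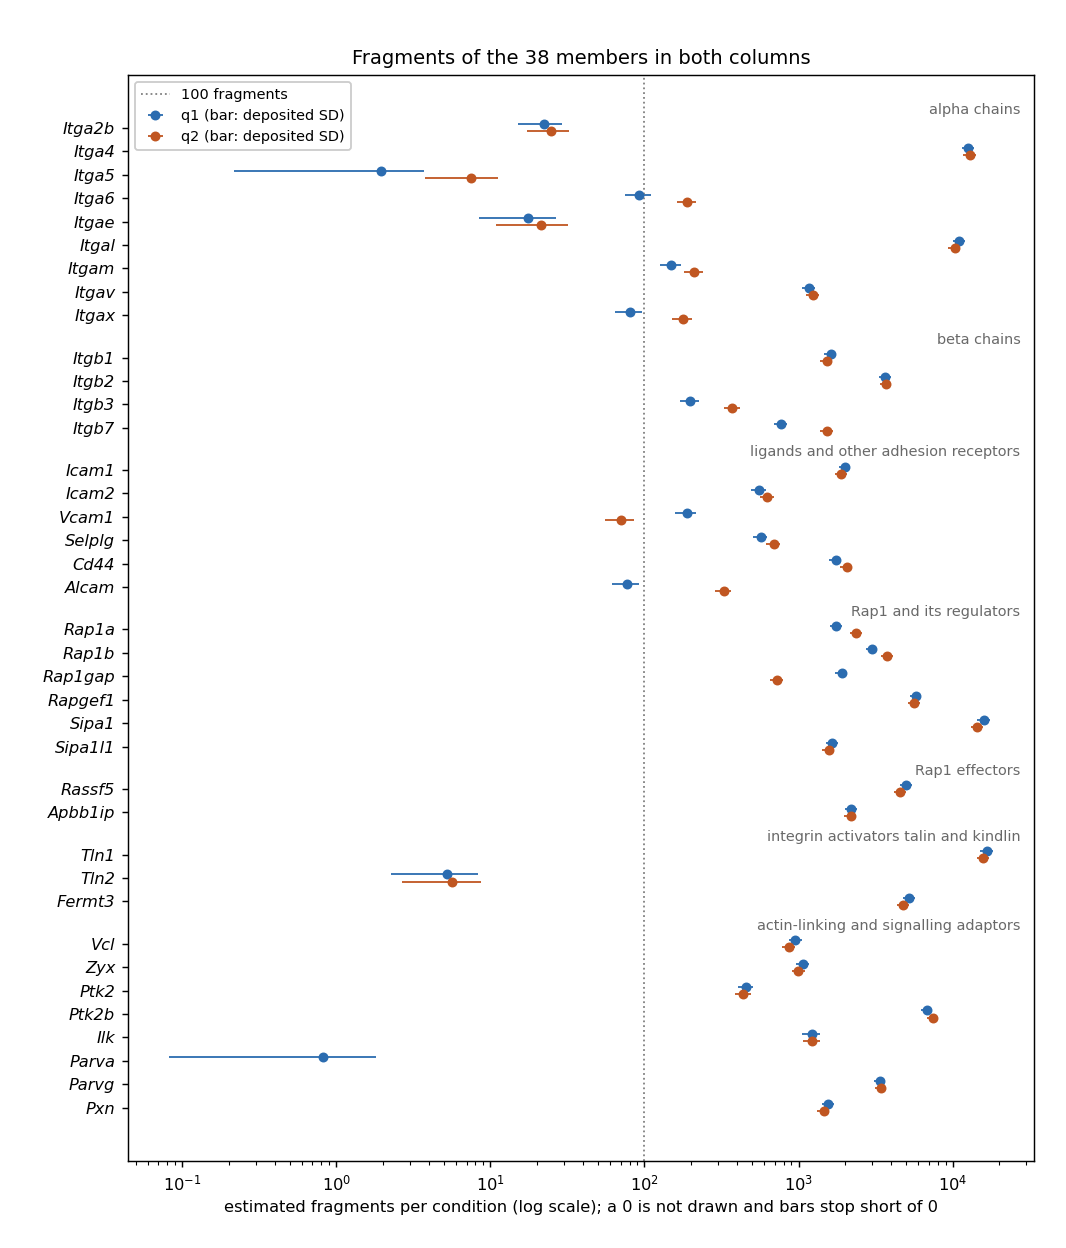
Estimated fragments (log scale) of the 38 members in q1 (blue) and q2 (orange), grouped by role, with the deposited SD as bars and the 100-fragment minimum dotted. The columns lie apart for Alcam (76.7 and 326), Vcam1 (188 and 70.5), Rap1gap (1906 and 723) and Itgb7 (766 and 1526), and nearly coincide for most others.

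**Figure D2:**
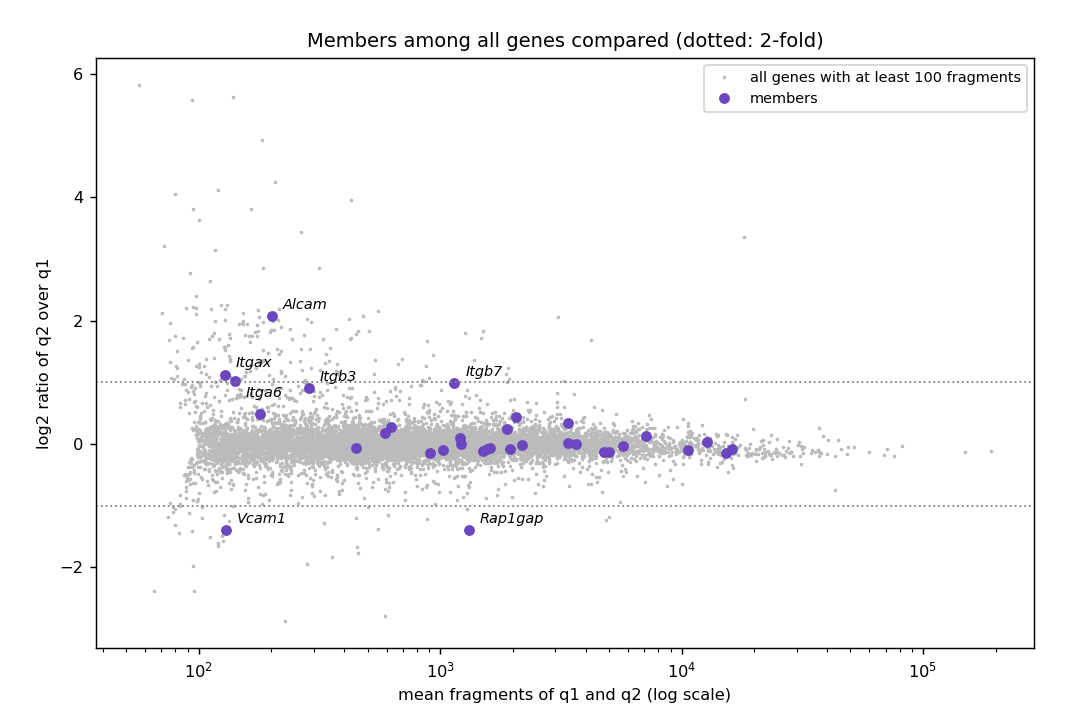
Log2 ratio of q2 over q1 against mean fragments (log scale) for all 9582 genes of at least 100 fragments (grey) and the 33 members among them (purple), with 2-fold dotted. Rap1gap, at -1.40, is the abundant member farthest from 0, and Alcam, at 2.07, is the highest.

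RefSeq promoter windows (GRCm38.p6) were matched to 24 of the 38 members by symbol, each of 300 bases from 250 before the transcript start. The windows of the most divergent members that had one are shown, so that the start regions can be read beside the values. They were searched on both strands for the letters TGGGAA (the core bound by RBPJ, the DNA-binding partner of Notch), GAGGAAGT (PU.1) and TGTGGT (the RUNX core). None of these motifs contains another. Capitals mark the matches. The windows are Rap1gap at chr4:137664476-137664775 on the plus strand (the most upstream of its 7 windows), Alcam at chr16:52453032-52453331 on the minus strand, Itgax at chr7:128129300-128129599 on the plus strand and Itgb7 at chr15:102231886-102232185 on the minus strand.
Rap1gap: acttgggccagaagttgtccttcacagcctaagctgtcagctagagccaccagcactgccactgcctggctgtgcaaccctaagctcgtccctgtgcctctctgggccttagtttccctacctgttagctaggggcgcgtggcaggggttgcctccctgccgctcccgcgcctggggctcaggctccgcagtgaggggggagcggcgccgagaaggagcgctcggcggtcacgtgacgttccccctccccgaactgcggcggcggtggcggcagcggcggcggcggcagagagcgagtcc
Alcam: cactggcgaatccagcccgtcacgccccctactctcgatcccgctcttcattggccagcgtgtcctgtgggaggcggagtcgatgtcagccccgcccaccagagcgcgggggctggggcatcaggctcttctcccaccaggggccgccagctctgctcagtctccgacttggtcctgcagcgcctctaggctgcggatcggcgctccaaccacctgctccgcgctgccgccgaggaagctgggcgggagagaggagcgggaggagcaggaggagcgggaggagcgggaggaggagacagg
Itgax: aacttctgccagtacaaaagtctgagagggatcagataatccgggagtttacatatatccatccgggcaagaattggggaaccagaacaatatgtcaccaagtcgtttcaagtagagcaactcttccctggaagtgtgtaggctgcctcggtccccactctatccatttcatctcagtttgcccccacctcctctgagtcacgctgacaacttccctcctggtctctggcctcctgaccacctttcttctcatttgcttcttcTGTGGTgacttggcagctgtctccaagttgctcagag
Itgb7: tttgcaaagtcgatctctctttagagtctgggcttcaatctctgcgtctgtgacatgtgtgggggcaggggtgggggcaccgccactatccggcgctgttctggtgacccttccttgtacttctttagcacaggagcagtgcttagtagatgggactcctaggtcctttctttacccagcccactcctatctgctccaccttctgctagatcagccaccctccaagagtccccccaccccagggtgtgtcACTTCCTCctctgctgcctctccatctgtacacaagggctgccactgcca
The Itgax window held a RUNX core that begins 13 bases after the start, and the Itgb7 window held a PU.1 match on the reverse strand that begins at the start itself. The windows of Rap1gap and Alcam shown held none of these letters, though other windows of Rap1gap, some of which overlap each other, held the RBPJ core. Over the table's 32851 windows, 25.6% held the RBPJ core, 3.20% the PU.1 letters and 16.8% the RUNX core. Of the 33 windows of members, 7 held the RBPJ core, 5 the PU.1 letters and 7 the RUNX core. The PU.1 letters were found at Apbb1ip, Itgav, Itgb7, Parvg and Rassf5, of which Itgb7 alone is among the 8 members more than 2 SD apart. A match describes the letters of a window and was not measured as binding.

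Itga4 and Itgal made up most alpha chain transcripts, and both were near equal in the columns. Itga4, the alpha chain of the receptors for VCAM1 and the mucosal ligand MAdCAM1, counted 12662 fragments in q1 against 12922 in q2, a log2 ratio of 0.03 ± 0.19. Itgal, which pairs with Itgb2 to bind ICAMs, had 11027 and 10321 fragments, at -0.10 ± 0.18. Itgav, whose pairs bind RGD-containing matrix proteins, had 1165 and 1242, at 0.09 ± 0.19. The columns agreed within 1 SD for these 3 chains. Per kilobase of the longest annotated transcript, Itgal supplied 57.7% ± 2.9 (SD) of the summed level of the member alpha chains in q1 and 54.6% ± 2.9 in q2. Itga4 supplied 35.4% ± 2.8 and 36.5% ± 2.8, and Itgav 4.52% ± 0.49 and 4.86% ± 0.52. These SDs leave out the choice of length, on which the shares and their order depend. With the median length of the coding transcripts, Itgal supplied 44.0% and 40.8%, Itgav 30.7% and 32.3%, and Itga4 23.5% and 23.7%, so that Itgav stood above Itga4. The median length for Itgav, 688 bases beside 7054 for its longest transcript, includes partial models. By the longest transcript Itga4 stood above Itgav, and no order of these 2 chains is drawn from the median length.

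Of the scarcer alpha chains among the members, the 3 above the minimum were higher in q2, and Itga6 and Itgax reached it only through q2. Outside the members, the 1 other integrin chain above the minimum, Itga10, lay toward q1 by less than 1 SD, with 231 and 190 fragments. Itga6, which forms laminin receptors, counted 92.3 fragments in q1 against 189 in q2, at 1.03 ± 0.34. Itgax, the CD11c chain found on dendritic cells and on age-associated B cells, had 80.4 and 177, at 1.13 ± 0.36. Itgam, the CD11b chain of myeloid and B-1 cells, had 149 and 210, at 0.49 ± 0.31, which is less than 2 SD. In the annotation, 68.7% of the exonic bases of Itgam are shared with the gene model Gm49368, so its count is uncertain. By the longest transcript, each of these 3 chains supplied between 0.543% and 1.24% of the alpha chain level in either column. The remaining 3 alpha chains lay below the minimum. Itga2b, the platelet chain, had 22.2 and 24.8 fragments. Itgae, the CD103 chain of mucosal T cells, had 17.5 and 21.2. Itga5, the fibronectin receptor chain, had 1.95 and 7.51, which is 3.85-fold (exact 95% counting interval 0.743 to 39.1). The ratios and exact intervals of the others were 1.12 (0.604 to 2.08) for Itga2b and 1.21 (0.614 to 2.43) for Itgae, and each of the 3 intervals includes 1.

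Among the beta chains the columns lay apart for Itgb7 and Itgb3 and were near equal for Itgb1 and Itgb2. Itgb7, which pairs with Itga4 for homing to gut tissue and with Itgae, counted 766 fragments in q1 against 1526 in q2, at 0.99 ± 0.20. Itgb3, the partner of Itgav and of the platelet chain Itga2b, had 198 and 373, at 0.91 ± 0.27. Itgb1, the common partner of Itga4, Itga5 and Itga6, had 1612 and 1520, at -0.08 ± 0.18. Itgb2, the beta chain of the leukocyte integrins, had 3655 and 3671, at 0.01 ± 0.18. The level per kilobase summed over the 4 beta chains was 1973 in q1 and 2268 in q2. Of that sum, Itgb7 supplied 14.5% ± 1.5 in q1 and 25.1% ± 2.1 in q2. Itgb2 supplied 62.4% ± 2.5 and 54.5% ± 2.6, Itgb1 21.4% ± 1.9 and 17.6% ± 1.6, and Itgb3 1.74% ± 0.27 and 2.84% ± 0.36. These shares depend on the transcript length used: with the median length of the coding transcripts, Itgb7 supplied 21.4% in q1 and 35.1% in q2, still higher in q2, Itgb1 8.55% and 6.64%, and Itgb3 0.412% and 0.637%. Whether Itgb1 or Itgb7 was the more abundant in q1 turned with that choice, so no order is given there. In q2 Itgb7 was above Itgb1 by both lengths. The median length for Itgb7, 430 bases beside 2683 for its longest transcript, includes partial models.

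Setting partner chains side by side shows which chain of a pair differed. In alpha4beta7 the difference lay in the beta chain, whose log2 ratio exceeded that of Itga4 by 0.96 ± 0.27. In alphaVbeta3 it again lay in the beta chain, by 0.81 ± 0.33. In alpha6beta1 and alphaXbeta2 it lay in the alpha chain, with beta minus alpha at -1.11 ± 0.39 and -1.12 ± 0.40. The pairs alpha4beta1 and alphaLbeta2 showed no such gap, at -0.11 ± 0.26 and 0.10 ± 0.25. Transcripts of paired chains do not give the number of pairs on the cell surface.

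**Figure D3:**
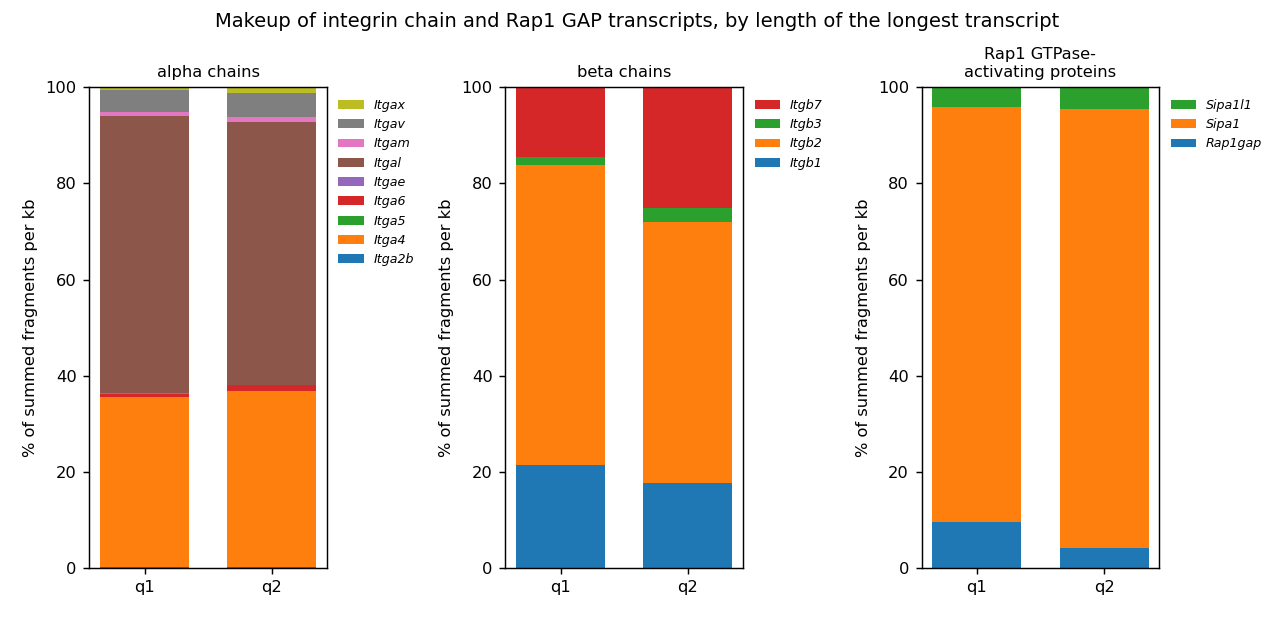
Share of each gene in the summed fragments per kilobase of the alpha chains, beta chains and Rap1 GAPs that are members, in percent, for q1 and q2, by the longest annotated transcript. Itgb7 takes 14.5% of the beta chain bar in q1 and 25.1% in q2, Rap1gap takes 9.51% and 4.19% of the GAP bar, and the alpha chain bars are close to each other.

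Markers of other cells that carry these chains gave the following values. All 12 platelet markers lay below 100 fragments, Pf4 was at 0 and 0.44 fragments, Treml1 was at 0 in both columns, and the list summed to 90.9 in q1 and 82.4 in q2. Gp1ba, a chain of the platelet receptor for von Willebrand factor, supplied 79.0 and 71.9 of those sums. Of the platelet markers, 5 were higher in q2 and 6 in q1. The T cell list, whose cells carry Itgb7 and Itgae, had 13 of 14 genes higher in q2 and summed to 1245 and 1495. Lck, a kinase of T cell receptor signalling, supplied 524 and 689 of those sums. Of the 14, 2 reached 100 fragments and lay opposite ways, Lck at 0.39 ± 0.22 and the kinase Zap70 at -0.52 ± 0.30. The defining gene Cd3e had 22.8 and 36.4 fragments. The dendritic cell list, relevant for Itgax, had 5 of 10 genes higher in q2 and summed to 1777 and 2605, of which Cd83, a gene also of activated B cells, supplied 1622 and 2388. Flt3, the other gene of that list at the minimum, had 81.0 and 156 fragments, at 0.94 ± 0.36, so both lay toward q2. The defining dendritic cell genes Xcr1 and Clec9a had 24.9 and 28.7, and 2.16 and 2.13 fragments. The NK cell list had 7 of 9 genes higher in q2 and summed to 355 and 331. Prf1, its 1 gene at the minimum, supplied 265 and 190 of those sums and lay toward q1. The neutrophil list had 6 of 8 genes higher in q2, summed to 60.9 and 67.0, and had no gene at the minimum. Of 6 follicular B cell markers, 4 were higher in q2, among them Fcer2a, the low-affinity IgE receptor, with 683 and 2265 fragments. The part of these cells, and of the cycling, germinal center and plasma cell markers above, in the differences of Itgb7, Itgb3, Itgax and Itga6 was not tested.

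The ligands and other adhesion receptors included Alcam, the member with the largest ratio, and Vcam1, which lay the other way. Alcam, an immunoglobulin-family receptor that binds CD6 on T cells, counted 76.7 fragments in q1 against 326 in q2, a 4.21-fold difference and a log2 ratio of 2.07 ± 0.34. It ranked 39 among all 9582 genes by absolute ratio. Its position is 52248996 to 52454074 on chromosome 16 (GRCm38). The part of the germinal center, plasma cell and cell cycle markers that were higher in q2 in the Alcam difference was not tested. Vcam1, the ligand of alpha4 integrins, counted 188 fragments in q1 against 70.5 in q2, a log2 ratio of -1.40 ± 0.38, and ranked 124. Beside Vcam1, which splenic macrophages and stroma express, 14 of 17 macrophage and monocyte markers were higher in q1 by any amount, and the list summed to 1317 and 967 fragments. At or above the minimum, 6 of these markers split 4 to 2. Toward q1 lay Hmox1, heme oxygenase, with 212 and 88.3 fragments, Csf1r, the macrophage growth factor receptor, with 188 and 78.8, Slc40a1, the iron exporter, with 184 and 64.8, and the lysosomal Cd68 with 184 and 162. Toward q2 lay the monocyte marker Ly6c2, with 59.4 and 208 fragments (1.79 ± 0.38), and Emr1, the F4/80 antigen, with 85.8 and 146 (0.76 ± 0.37). No macrophage marker was at 0 in both columns. The stromal and endothelial list summed to 90.5 and 67.3, with Lyve1 and Pdgfra at 0 in both. The part of macrophages in the Vcam1 difference was not tested.

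The other 4 members of this role differed by less than 2 SD. Icam1, the ligand of alphaLbeta2 that B cells themselves display, counted 1996 fragments in q1 against 1889 in q2, at -0.08 ± 0.18. Icam2, its constitutive relative, had 552 and 625, at 0.18 ± 0.22. Selplg, which carries the ligand of P-selectin, had 567 and 688, at 0.28 ± 0.21. Cd44, the hyaluronan receptor, had 1739 and 2050, at 0.24 ± 0.18. Thus 3 of these 4 stood somewhat higher in q2, each within 1.31 SD.

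Among the members that regulate Rap1, the columns lay farthest apart for Rap1gap. Rap1gap, a GAP that returns Rap1 to its inactive form, counted 1906 ± 170 fragments in q1 against 723 ± 74 in q2. That is a 2.64-fold difference and a log2 ratio of -1.40 ± 0.20, or 7.16 SD, the most SDs of any member; by absolute ratio it ranked 125 among all genes. Rap1gap lies at 137664726 to 137729861 on chromosome 4, and none of its exonic bases is shared with another annotated gene. The B cell and marginal zone markers were higher in q1 as well, and their part in the Rap1gap difference was not tested. Rap1a and Rap1b, the Rap1 proteins, were both somewhat higher in q2. Rap1a had 1745 and 2363 fragments, at 0.44 ± 0.18, and Rap1b 2991 and 3769, at 0.33 ± 0.18, which is 1.89 SD. Rap1a has an annotated processed pseudogene, Rap1a-ps2, with which the authors' counting could have shared reads.

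The remaining regulators of Rap1 among the members were near equal. Sipa1, a Rap GAP abundant in lymphoid tissue, counted 15947 fragments in q1 against 14492 in q2, at -0.14 ± 0.19. Its relative Sipa1l1 had 1646 and 1566, at -0.07 ± 0.18. Rapgef1, an exchange factor that loads Rap1 with GTP, had 5763 and 5640, at -0.03 ± 0.18. Per kilobase, Sipa1 supplied 86.4% ± 1.4 of the summed level of these 3 GAPs in q1 and 91.2% ± 0.9 in q2, while Rap1gap supplied 9.51% ± 1.09 and 4.19% ± 0.54 by the longest transcript, and 14.2% and 6.43% by the median length of the coding transcripts. The sum was 4844 per kilobase in q1 and 4167 in q2. A large ratio in Rap1gap thus stood beside a small ratio in the more abundant Sipa1.

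Below Rap1, the columns lay within 1 SD for every member above the minimum. The effectors Rassf5, which links Rap1 to alphaL, and Apbb1ip, which brings talin to the membrane, stood at -0.13 ± 0.18 and -0.02 ± 0.18. Rassf5 counted 4998 fragments in q1 against 4554 in q2, and Apbb1ip 2204 and 2176. Tln1, talin, which opens the integrin from inside, was the member with the most fragments, at 16673 and 15822, and a log2 ratio of -0.08 ± 0.19. Fermt3, the kindlin of blood cells, had 5240 and 4795, at -0.13 ± 0.18. Tln2, the talin of other tissues, had 5.26 and 5.67 fragments, which is 1.08-fold (exact counting interval 0.270 to 4.40).

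The 7 actin-linking and signalling adaptors above the minimum were all within 1 SD, with ratios from -0.14 to 0.13. Ptk2b, the focal adhesion kinase relative PYK2 of leukocytes, had 6798 and 7436 fragments, at 0.13 ± 0.18. Ptk2, the focal adhesion kinase itself, had 457 and 439, at -0.06 ± 0.23. Parvg, the parvin of blood cells, had 3375 and 3408, at 0.01 ± 0.18. Parva, the widely expressed parvin, was nearly undetected, with 0.82 fragments in q1 and 0 in q2; both are under the 3 fragments that a count of 0 allows, so no fold is given. Ilk, the scaffold that binds parvins, had 1221 and 1219, at -0.00 ± 0.27. In the annotation, 89.7% of the exonic bases of Ilk are shared with Rrp8 or Taf10, so its count is uncertain. Pxn, the adaptor paxillin, had 1563 and 1453, at -0.11 ± 0.19, and Zyx, the actin regulator zyxin, 1063 and 999, at -0.09 ± 0.20. Vcl, vinculin, which binds talin under tension, had 955 and 866, at -0.14 ± 0.20. It shares 25.5% of its exonic bases with Ap3m1.

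**Figure D4:**
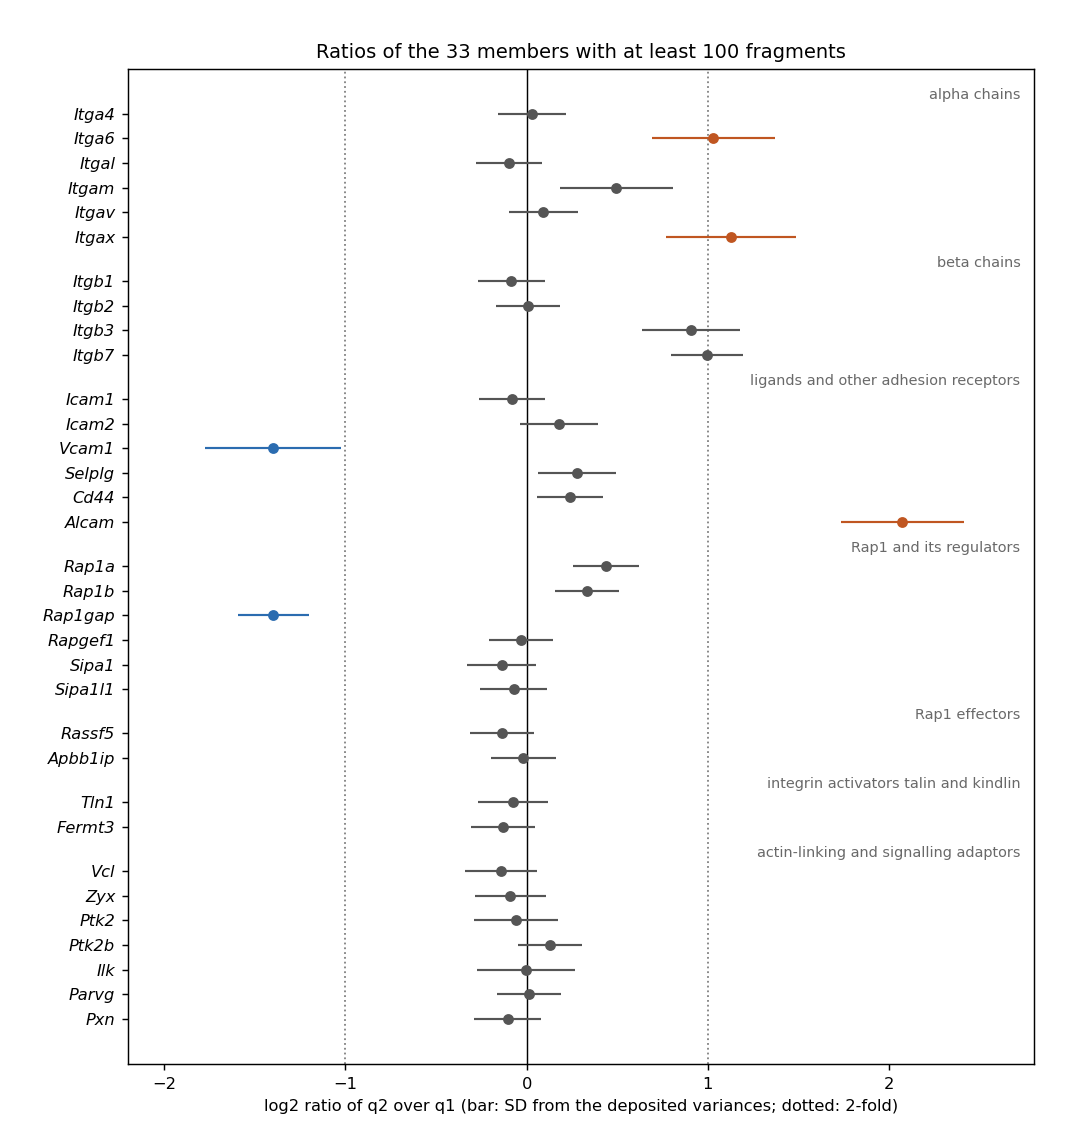
Log2 ratio of q2 over q1 of the 33 members of at least 100 fragments, by role, with the SD from the deposited variances as bars; 2-fold is dotted, and blue and orange mark members at least 2-fold higher in q1 and q2. Surface receptors, ligands and Rap1gap hold the ratios beyond 2-fold (Vcam1 -1.40, Rap1gap -1.40, Alcam 2.07), while talin, kindlin and the adaptors lie between -0.14 and 0.13.

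Further genes of the pathway were read from 5 lists of 147 symbols, of which 146 were in the table and 93 reached the minimum. Of these 93, 57 (61.3%) were higher in q2 and 36 in q1, beside 50.2% of all genes higher in q2. A 2-fold difference was met by 2 of them toward q2 and by none toward q1, or 2.15%, near the 2.28% of all genes. More than 2 SD apart were 12 of the 93, beside 6.26% of all genes. The 2 genes that were 2-fold apart reached the minimum only through q2. Other integrin chains were scarce: 14 of 15 lay below 100 fragments, and Itga10, a collagen receptor chain, had 231 in q1 and 190 in q2, at -0.28 ± 0.29. Itgad, a chain of splenic macrophages chosen here after its values were seen, had 58.9 and 23.7 fragments.

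In the list of Rap GTPases, exchange factors and GAPs, 25 of 27 genes reached the minimum, 15 were higher in q2 and 10 in q1, and the median was 0.09. Rapgef3, the cAMP-activated exchange factor EPAC1, was the member at least 2-fold apart, with 13.1 fragments in q1 and 131 in q2, at 3.22 ± 0.58. Rasgrp3, a diacylglycerol-activated exchange factor of B cells, had 2197 and 3903, at 0.83 ± 0.18, and Rap1gap2, the relative of Rap1gap, had 376 and 258, at -0.54 ± 0.26; both were singled out after their values were seen. Of the 22 Rap1 effectors and inside-out adaptors above the minimum, 16 stood toward q2 and 6 toward q1, and the median was 0.05. Rassf6, of the same RASSF family as the effector Rassf5, had 8.16 and 152 fragments, at 4.06 ± 0.63.

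The 2 remaining lists held no gene at least 2-fold apart. Of 7 ligands, selectins and other receptors above the minimum, 5 were higher in q2, with a median of 0.05. Cd47, an integrin-associated protein, stood at 0.19 ± 0.19 and Nid1, the basement membrane protein nidogen, at -0.44 ± 0.20. Of 38 focal adhesion and actin-linking genes, 21 stood toward q2 and 17 toward q1, and the median was 0.05. The largest ratios there were those of Tns1, the integrin-binding adaptor tensin, at -0.89 ± 0.38, Rsu1, a partner of the Ilk complex, at -0.51 ± 0.19, and Rhoh, a blood cell GTPase, at 0.51 ± 0.19. The germinal center, plasma cell and cell cycle markers that were higher in q2 stand beside Rapgef3 and Rassf6 as well, and their part was not tested.

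**Figure D5:**
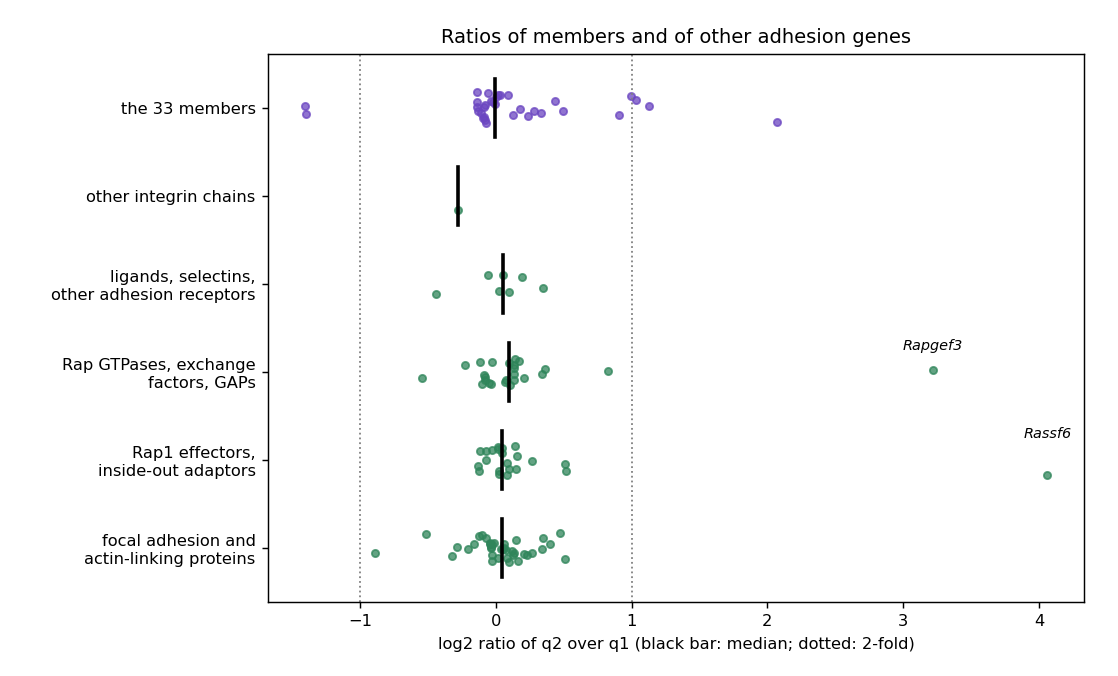
Log2 ratios of q2 over q1 of the 33 members (purple) and of the genes of at least 100 fragments in 5 further adhesion lists (green), with each list's median as a black bar and 2-fold dotted. Medians lie between -0.28, for a list with 1 gene, and 0.09, and Rapgef3 (3.22) and Rassf6 (4.06) lie far to the right.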

How the data were processed

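RNA was sequenced from 8 libraries of mouse MZBs, 4 per group. The submitters' processing notes name, on mm10, the tools Cuffdiff (2.2.1), cutadapt (1.8.1) and TopHat2 (2.0.14); annotation and filters: not given in the sources used here. The authors deposited, per the file headers, estimated counts of fragments per gene and condition, with variances, which pool the libraries. How the columns were scaled and whether a variance refers to a library or to a mean are not stated. No gene had an isoform assignment part of the variance above 0.

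From these values, log2 ratios (pseudocount 1, minimum 100 fragments) and their SDs, to first order, were computed with Python 3.11.15, NumPy 2.4.6, pandas 2.3.3 and SciPy 1.17.1, and the code was tested on simulated data. The 95% intervals for scarce genes are Clopper-Pearson, take estimated fragments for counts and hold counting error alone. Precision is lowest for scarce members. Positions, overlaps and transcript lengths came from GENCODE M21 (GRCm38), to which all 38 members matched. The members and lists were chosen with earlier results of these data known. The text names every member, Ackr3, the listed pathway genes at least 2-fold apart or else the 3 largest ratios, and chosen markers; the rule's 3 most abundant genes of each marker list are not all printed, and some markers were chosen after their values were seen. A pathway gene that the rule names is not reported here. Alternatives were other pseudocounts, minimums, scalings, size rules and transcript lengths.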

Additional observations from a re-analysis of the deposited data

How the results depend on the processing

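No paired analysis was possible because libraries are pooled in the table, which also kept any library from being left out. Under pseudocounts of 0 and 10, equal totals and scaling by the median ratio, all 132 ratios of the 33 members stayed within counting error. With equal totals 2 of them changed sign, those of Apbb1ip and Ilk, both near 0. The log2 ratio of the totals was -0.0193, the median log2 ratio 0.0005 and the smallest counting error 0.031 (Tln1). The 2 scalings could therefore not move a ratio past counting error. Members at least 2-fold higher in q2 numbered 3 as reported, 2 with a pseudocount of 10 (Itga6 at 0.96) and 4 with equal totals (Itgb7 at 1.01). With a minimum of 500 fragments, members at least 2-fold apart became 0 toward q2 and 1 toward q1 (Rap1gap), the member median was -0.025, and pathway genes at least 2-fold higher in q2 became 0, since fewer genes were compared; the list of other integrin chains then had no gene. With a minimum of 20, 106 pathway genes were compared, of which 3 were at least 2-fold higher in q1 and 2 in q2. The shares of all genes past 2-fold were not computed for that minimum, the pseudocount of 10 or equal totals. The 1.5-fold rule gave 5 members toward q2, adding Itgb3 and Itgb7. With the median length of the coding transcripts, which includes partial models, the shares in q1 and q2 became 23.5% and 23.7% for Itga4, 44.0% and 40.8% for Itgal, 30.7% and 32.3% for Itgav (4.52% and 4.86% by the longest), 8.55% and 6.64% for Itgb1, 69.7% and 57.6% for Itgb2, and 21.4% and 35.1% for Itgb7. The shares of Rap1gap, a sum added after seeing the data, became 14.2% and 6.43%.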
